A study of Mus musculus with 2207 samples.

Results

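Homeostatic microglia genes were followed in single nuclei of mouse cortex. The genes were *P2ry12*, *P2ry13*, *Cx3cr1*, *Tmem119*, *Csf1r*, *Gpr34*, *Siglech*, *Sall1* and *Fcrls*, a list given by name, and all 9 were found by symbol among the 52636 genes of the deposited expression tables. Single-nucleus RamDA-seq, a full-length total RNA method, was applied to 2207 nuclei in 6 pools. Each pool was made from 3 C57BL/6 mice of 14 weeks of age, and all mice had been given 2 doses of tamoxifen (100 mg/kg), at 3 weeks of age by the labels and 1 week apart by the methods. In 96-well plates the pools were wild type (Ehmt1+/+, here WT) and Ehmt1delta/+. In 384-well plates all 4 pools carried the Ehmt1 iTg transgene by the labels. WT (Ehmt1+/+; Ehmt1 iTg) and Ehmt1delta/+ (Ehmt1delta/+; Ehmt1 iTg) lacked CamKII-CreER, while iTg (Ehmt1+/+; Ehmt1 iTg; CamKII-CreER) and Ehmt1delta/+; iTg (Ehmt1delta/+; Ehmt1 iTg; CamKII-CreER) carried it. The text of the study instead names CamKII-CreER for all 4 genotypes of this experiment, and the labels were followed here. *CamKII-CreER* is active in forebrain neurons, so that in these mice the transgene is induced in neurons and not by design in microglia. The labels do not say from which mouse a nucleus came, and the pool was therefore the unit of replication.

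Nuclei labelled Microglia made up 4.32 to 9.95% of the nuclei of a pool, with 36 WT and 32 Ehmt1delta/+ in the 96-well plates and 16 WT, 19 Ehmt1delta/+, 20 iTg and 23 Ehmt1delta/+; iTg in the 384-well plates. Nuclei labelled Neuron (1664) and Oligodendrocyte (397) gave the background. These labels were set by the authors from clusters and marker genes of the same nuclei, so that the difference between cell types is described here and not tested. Among the microglia, the median read total was between 493359 and 510639 in the 96-well pools and between 39940 and 51469 in the 384-well pools, whereas neurons had medians of 323273 to 397880 in all pools. For microglia the plate formats thus differed in read total as well as in the transgene given above. A difference in level between formats can therefore not be ascribed to the format itself. Of the nuclei labelled Microglia, 4 stood apart by markers of border macrophages and 1 held none of the 9 genes, and both are described below. The SD given beside a mean is over the nuclei of a pool, which are not independent animals. *Ehmt1* itself was not lower in the pools labelled Ehmt1delta/+. Its mean RPKM (reads scaled for exon length and for the read total of the nucleus) in microglia was 16.8 in WT and 25.1 in Ehmt1delta/+ of the 96-well plates, and 15.7 and 20.8 in the 384-well plates. Reads outside the deleted part enter this value too, so that it is no check of the deletion, and every direction below rests on the genotype labels.

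Microglia are the resident macrophages of the brain parenchyma. In the undisturbed adult brain they express a set of surface receptors with which they sense nucleotides, chemokines, growth factors and lipids, and this set is called homeostatic because it falls when microglia respond to injury or disease. *Csf1r* encodes the receptor for CSF1 and IL-34 on which microglial survival depends. *Cx3cr1* encodes the receptor for the neuronal chemokine fractalkine, *P2ry12* and *P2ry13* encode ADP receptors, and *Gpr34* encodes a receptor for lysophosphatidylserine. *Tmem119*, *Siglech* and *Fcrls* encode surface proteins that distinguish microglia from most other brain cells, and *Sall1* encodes a transcription factor that maintains microglial identity.

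In nuclei labelled Microglia, most of the 9 genes were found together in most nuclei. *Ctss*, the marker that the study names for microglia, was above 0 in 36 of 36 and 32 of 32 microglia of the 96-well plates, and in 13 of 16, 15 of 19, 18 of 20 and 21 of 23 of the 384-well plates. All 9 had a value above 0 in 34 of 36 WT and in 29 of 32 Ehmt1delta/+ microglia of the 96-well plates. In the 384-well plates all 9 were found in 10 of 16 WT, 7 of 19 Ehmt1delta/+, 10 of 20 iTg and 18 of 23 Ehmt1delta/+; iTg microglia. The mean number of the 9 genes found per microglial nucleus was between 7.79 and 8.78 over the pools, and the median was 8 or more in every pool. The 96-well microglia had more reads, but after thinning each of them to 26382 reads the mean was 8.60 in WT and 8.56 in Ehmt1delta/+, against 8.67 and 8.66 before. In neurons the mean number was between 1.73 and 2.91, and in oligodendrocytes it was between 0.582 and 1.197. No neuron or oligodendrocyte held all 9.

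**Figure D1:**
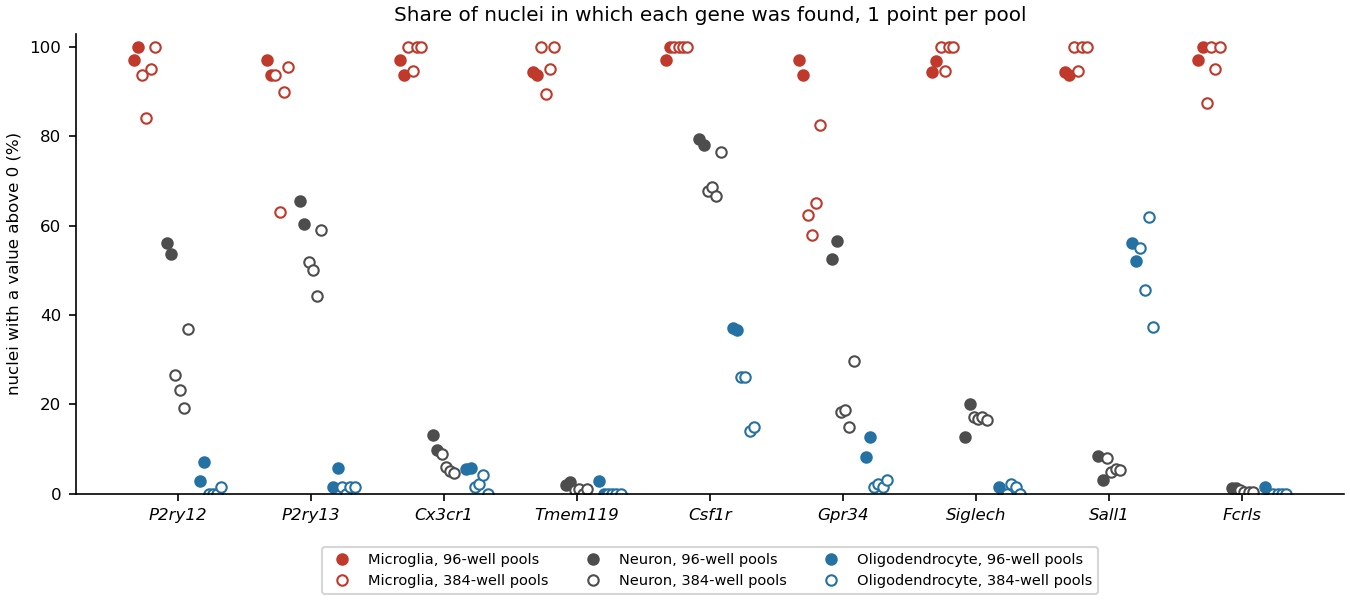
Share of nuclei with a value above 0 (percent, y axis) for each gene, 1 point per pool, in nuclei labelled Microglia, Neuron and Oligodendrocyte, with filled points for the 96-well and open points for the 384-well pools. *Tmem119* and *Fcrls* lie near 0 outside microglia, while *Csf1r*, *P2ry13*, *P2ry12* and *Gpr34* were found in many neurons and *Sall1* in many oligodendrocytes.

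*Csf1r* was the highest of the 9 genes in every pool, on the RPKM scale, which is per length. Its mean level in microglia was 959.9 ± 430.0 RPKM (SD, n = 36) in WT and 801 ± 397 RPKM (n = 32) in Ehmt1delta/+ of the 96-well plates. In the 384-well plates it was 823 ± 219.8 RPKM in WT, 864 ± 355.8 RPKM in Ehmt1delta/+, 872 ± 266.1 RPKM in iTg and 957 ± 207.4 RPKM in Ehmt1delta/+; iTg. It was also the most even, with an SD of 21.7% to 49.5% of the mean, depending on the pool, and it was found in every microglial nucleus but 1. With 1 pool per genotype and plate format, no order among the pools could be read from these means.

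*Cx3cr1* was the receptor gene whose level differed least between the plate formats. Its mean in microglia was 362.8 ± 213.2 RPKM in WT and 244.1 ± 188.1 RPKM in Ehmt1delta/+ of the 96-well plates, and 351.6 ± 177.4 and 247.5 ± 187.4 RPKM in the 384-well plates. The median nucleus was at 379.7 RPKM in WT and 198.2 RPKM in Ehmt1delta/+ of the 96-well plates, and at 376 and 183.6 RPKM in the 384-well plates. Both medians of Ehmt1delta/+ were thus below both medians of WT, although single nuclei spread from 0 to 859 RPKM in WT and from 0 to 788 RPKM in Ehmt1delta/+ of the 96-well plates and overlapped widely. In iTg and Ehmt1delta/+; iTg the mean was 278.4 ± 128.7 and 278.9 ± 135.5 RPKM.

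Both ADP receptor genes were found at a higher level in the 96-well than in the 384-well plates. *P2ry12* was at 381 ± 265.95 RPKM in WT and 256.3 ± 138.9 RPKM in Ehmt1delta/+ of the 96-well plates, and at 119.8 ± 83.7 and 94.2 ± 75.6 RPKM in the 384-well plates. *P2ry13* was at 194.9 ± 117.9 and 172.1 ± 102.7 RPKM in the 96-well plates, and at 73.2 ± 45.5 and 53.01 ± 60.01 RPKM in the 384-well plates. Single nuclei of the 96-well plates ran from 0 over a median of 328.3 to 1184 RPKM of *P2ry12* in WT and from 22.3 over 226.98 to 599 RPKM in Ehmt1delta/+, so the groups overlapped. The WT level in the 96-well plates was 3.18 times that in the 384-well plates for *P2ry12* and 2.66 times for *P2ry13*. *P2ry13* was missing from more nuclei than *P2ry12* in the Ehmt1delta/+ microglia of the 384-well plates, where it was found in 12 of 19 nuclei (63.2%, exact Clopper-Pearson 95% interval 38.4 to 83.7%) against 15 of 16 WT nuclei (93.8%, 69.8 to 99.8%). These intervals overlap and cover counting error only. After thinning every nucleus to 26382 reads, which left out 4 and 2 shallower nuclei, the expected share was 68.9% in Ehmt1delta/+ and 95.6% in WT, against 73.3% and 100% in the same nuclei before thinning.

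*P2ry12* and *P2ry13* lie next to each other on the minus strand of chromosome 3 (mm10), *P2ry12* at 59216272 to 59262871 and *P2ry13* at 59207892 to 59210882. Both lie inside *Med12l*, a gene of the plus strand. The 250 bases before the RefSeq start of *P2ry13* (GRCm38.p6, chr3:59210883-59211132, minus strand) lie in an intron of *Med12l*. They are shown with those before the first RefSeq start of *Sall1* (chr8:89044163-89044412, minus strand), which overlap no gene of the GENCODE M21 annotation, as the promoters of a receptor and of the transcription factor of the set. Both are written 5′ to 3′ on the strand of the gene, and capitals mark the letters GAGGAA, the core of sites bound by PU.1, the macrophage factor encoded by *Spi1*.
P2ry13: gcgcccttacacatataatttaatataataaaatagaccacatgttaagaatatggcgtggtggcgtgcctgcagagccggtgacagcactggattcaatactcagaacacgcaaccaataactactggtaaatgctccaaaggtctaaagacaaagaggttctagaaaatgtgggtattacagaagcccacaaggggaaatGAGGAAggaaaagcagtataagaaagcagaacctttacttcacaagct
Sall1: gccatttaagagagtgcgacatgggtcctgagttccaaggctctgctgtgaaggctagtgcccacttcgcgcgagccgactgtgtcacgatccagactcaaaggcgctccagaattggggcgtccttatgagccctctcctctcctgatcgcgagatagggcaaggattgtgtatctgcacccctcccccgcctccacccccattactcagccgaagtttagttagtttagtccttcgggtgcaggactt
GAGGAA was searched on both strands (TTCCTC on the other). It is present 1 time in the *P2ry13* window, 48 bases before the start, and in none of the 3 *Sall1* windows. Of the 8 windows of 6 of the genes in the RefSeq table it was in 2, those of *P2ry13* and *Fcrls*, beside 23.3% of all 32851 windows. The *P2ry13* window has 41.6% G and C and 5 CG pairs, and the *Sall1* window has 56.4% and 13, against medians of 52.4% and 6 over all windows. A match of letters is no evidence of binding, and no match says nothing about the factor.

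*Gpr34* was the gene that differed most between the plate formats. It was at 200.9 ± 115.4 RPKM in WT and 120.6 ± 98.2 RPKM in Ehmt1delta/+ of the 96-well plates, and at 26.5 ± 45.5 and 36.7 ± 66.9 RPKM in the 384-well plates. The WT level in the 96-well plates was 7.57 times that in the 384-well plates, and the Ehmt1delta/+ level 3.29 times. It was found in 35 of 36 WT and 30 of 32 Ehmt1delta/+ microglia of the 96-well plates, but in 10 of 16 WT and 11 of 19 Ehmt1delta/+ microglia of the 384-well plates, where the median nucleus had 1.5 and 1 reads. With every nucleus thinned to 26382 reads the expected share was 94.5% and 90.4% in the 96-well plates and 57.7% and 42.98% in the 384-well plates, so that the formats differed at equal read totals too.

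The 3 surface proteins differed in how they moved between formats. *Tmem119* was at 351.7 ± 238.5 RPKM in WT and 225.5 ± 199.2 RPKM in Ehmt1delta/+ of the 96-well plates, and at 263.9 ± 180.5 and 264.1 ± 150.7 RPKM in the 384-well plates. *Siglech* was at 346.5 ± 175.6 and 377 ± 189.8 RPKM in the 96-well plates, and at 409.8 ± 160.8 and 279.6 ± 173.7 RPKM in the 384-well plates. *Fcrls* was at 408 ± 274.1 and 279.9 ± 147.2 RPKM in the 96-well plates, and at 163.6 ± 131.9 and 212.2 ± 111.8 RPKM in the 384-well plates. *Tmem119* and *Fcrls* were thus lower in Ehmt1delta/+ in the 96-well plates only, and *Siglech* in the 384-well plates only, and in each case the nuclei of both genotypes overlapped. For *Siglech*, 65.7% of the values above 0 did not correspond to a whole number of reads (within 0.01). Some of its reads were therefore counted in part, and its level is uncertain. The share of such values was 21.8% for *Cx3cr1*, 12.4% for *Sall1*, 7.89% for *P2ry12* and 0.153% for *Gpr34*. For *Tmem119* and *Fcrls* no value was of this kind.

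*Sall1*, the transcription factor, went the other way between formats. It was at 122.6 ± 69.1 RPKM in WT and 162.6 ± 103.2 RPKM in Ehmt1delta/+ of the 96-well plates, and at 326.2 ± 150.5 and 316.05 ± 174.1 RPKM in the 384-well plates. The WT level in the 384-well plates was 2.66 times that in the 96-well plates, and the Ehmt1delta/+ level 1.94 times. *Sall1* ranked last of the 9 genes in WT of the 96-well plates and second in Ehmt1delta/+ of the 384-well plates. Levels of different genes were therefore compared only within a plate format.

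**Figure D2:**
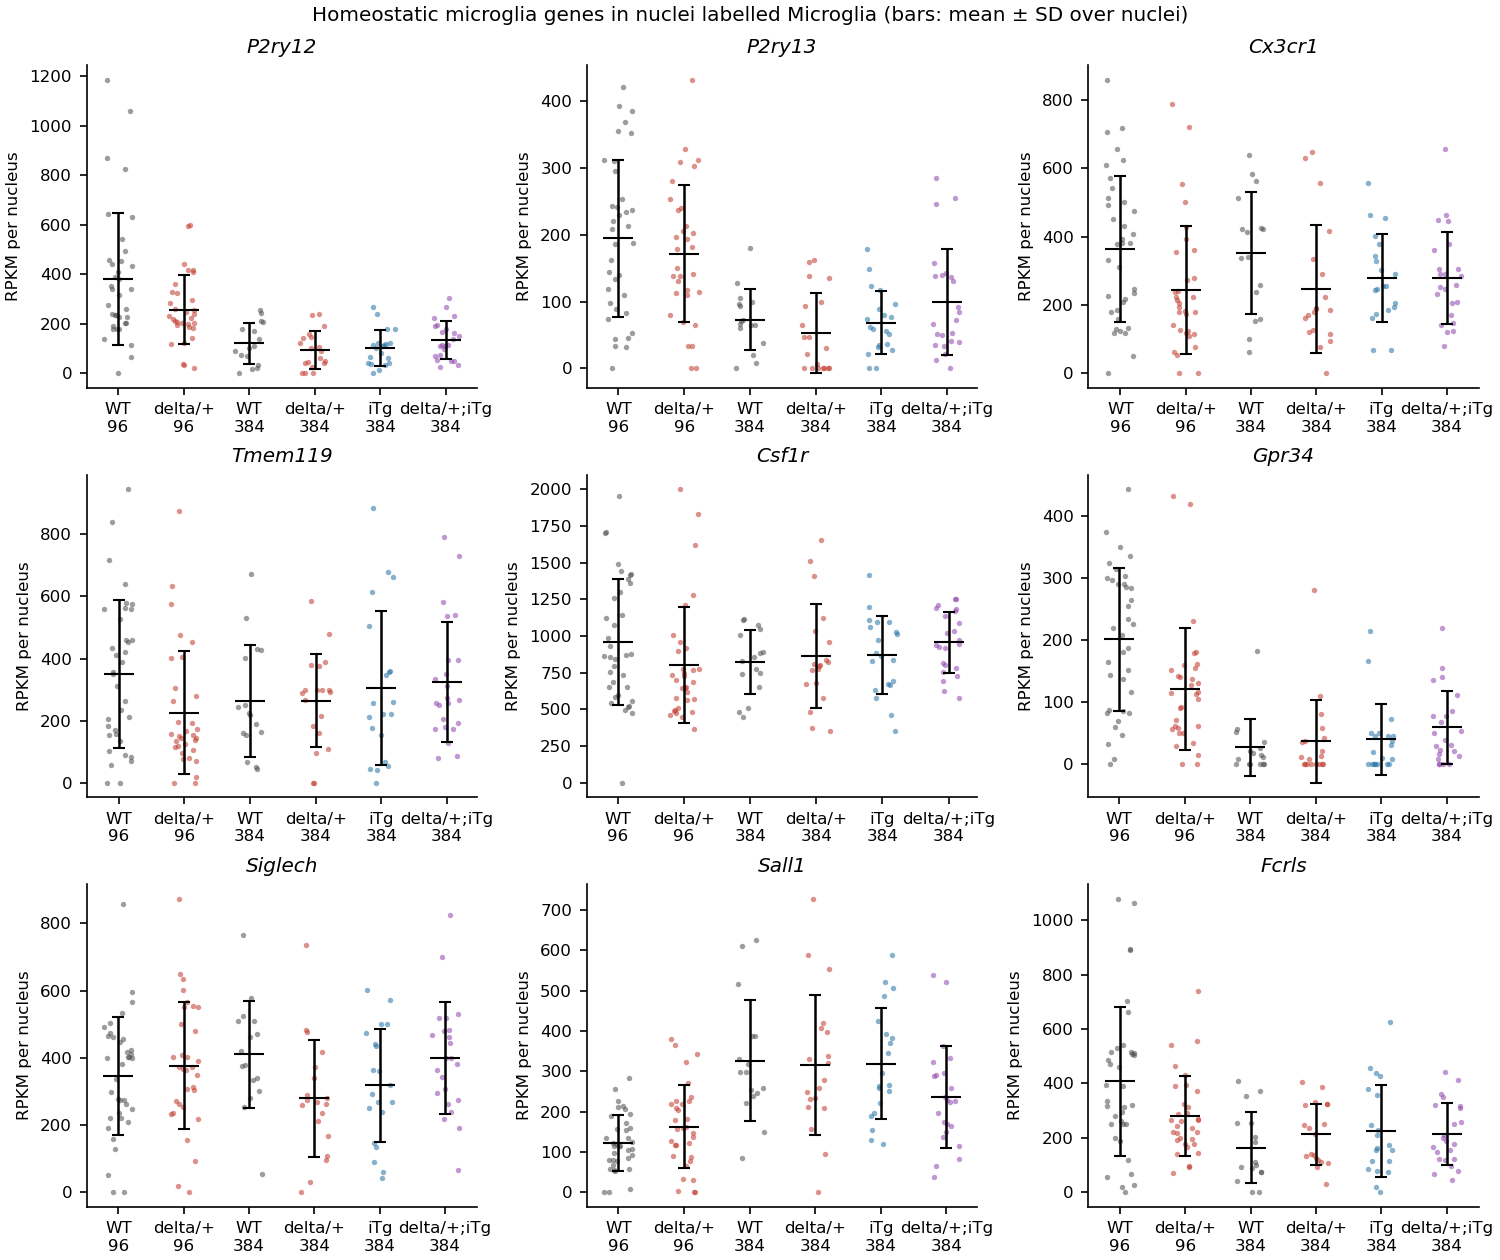
RPKM per nucleus (y axis, linear) of each gene in nuclei labelled Microglia of the 6 pools (x axis, genotype and plate wells), 1 point per nucleus, with bars for the mean ± SD over nuclei. Nuclei of WT and Ehmt1delta/+ overlap for all 9 genes, *Csf1r* is highest, and *P2ry12*, *P2ry13* and *Gpr34* are lower and *Sall1* higher in the 384-well pools.

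Whether these genes differ between genotypes was asked over both plate formats, in 4 pools. Limma was fitted to log2(mean RPKM + 0.1) with genotype and plate format as terms, which leaves 1 degree of freedom, and with Benjamini-Hochberg adjustment over 13686 genes. None of the 9 genes passed an adjusted p of 0.05 and none had an unadjusted p under 0.05. Over all genes tested, 0% passed the adjusted threshold, while at an unadjusted p under 0.05 the share was 0.899% higher and 1.03% lower in Ehmt1delta/+. The 4 pools thus showed no change of a homeostatic gene beyond their spread, and differences of the size seen here could not be told from it. The largest estimate was that of *Cx3cr1*, with a log2 ratio of -0.54 ± 0.45 (SE, limma adjusted p = 0.92). *P2ry12* had a log2 ratio of -0.46 ± 0.46 (limma adjusted p = 0.921) and *P2ry13* of -0.32 ± 0.46 (limma adjusted p = 0.942). The adjusted p of the 9 genes was 0.882 or more under all alternatives run. With the mean over nuclei of log2(RPKM + 1), in which nuclei at 0 weigh more, the unadjusted limma p was 0.0268 for *P2ry13* (log2 ratio -1.09, adjusted p = 0.882) and 0.0318 for *Cx3cr1* (log2 ratio -0.85, adjusted p = 0.887). By this average the ratios in the 96-well and 384-well plates were -0.30 and -1.88 for *P2ry13*, and -0.81 and -0.88 for *Cx3cr1*. The share of all genes with an unadjusted p under 0.05 by this average is not reported here.

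*P2ry12*, *P2ry13* and *Cx3cr1* were lower in Ehmt1delta/+ in both plate formats, by log2 ratios of -0.57 and -0.35, -0.18 and -0.47, and -0.57 and -0.51 in the 96-well and 384-well plates. None of the 9 was higher in both. Of all genes tested, 25.7% were lower and 25.1% higher in both formats, so that 3 of 9 lower is near the background. The other 6 genes had opposite signs, as did 49.1% of all genes. None of the 9 reached a log2 ratio of 1 in the same direction in both formats, as did 2.12% of all genes upward and 2.37% downward. The median log2 ratio of the 9 genes was -0.22 in the fit over both formats, -0.54 for the 96-well and -0.05 for the 384-well pools, beside medians of -0.02, 0.01 and -0.04 over all genes tested.

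The sample names hold a code whose meaning the labels do not give. Within the 96-well plates, 3 codes held microglia of both genotypes, with 7, 8 and 8 WT and 12, 6 and 9 Ehmt1delta/+ nuclei. Under each of these codes 82 to 92 well positions occurred in both genotypes, so that a code is not 1 plate and the genotypes were on different plates. *P2ry12*, *Cx3cr1*, *Tmem119*, *Csf1r*, *Gpr34* and *Fcrls* were lower in Ehmt1delta/+ within each of the 3 codes, and *P2ry13*, *Siglech* and *Sall1* within 1 of the 3. The share of all genes lower in each of the 3 codes was not computed. The codes are not replicates but parts of the same pools, over which 7 of the 9 genes were lower in Ehmt1delta/+. These directions are therefore a description only. The median log2 ratio of the 9 genes within the codes was -0.10, -0.15 and -0.59. In the 384-well plates WT had a code of its own and the 3 other pools shared another, so that the code and WT cannot be told apart there, in the fit as in the comparisons with WT below. Beside these ratios, the summed level of 5 neuron markers in microglia was 71.3 RPKM in WT and 15.9 RPKM in Ehmt1delta/+ of the 96-well plates, and 7.39 and 5.01 RPKM in the 384-well plates. Of 4 neuron markers tested, 2 were lower by a log2 ratio of 1 or more in both formats, *Rbfox3* and *Slc17a7*. *Rbfox3* was found in 2 of 16 WT and 0 of 19 Ehmt1delta/+ microglia of the 384-well plates. It entered the test only through WT, where it was higher, which favours such a ratio. The part of this neuronal RNA in the ratios was not tested.

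**Figure D3:**
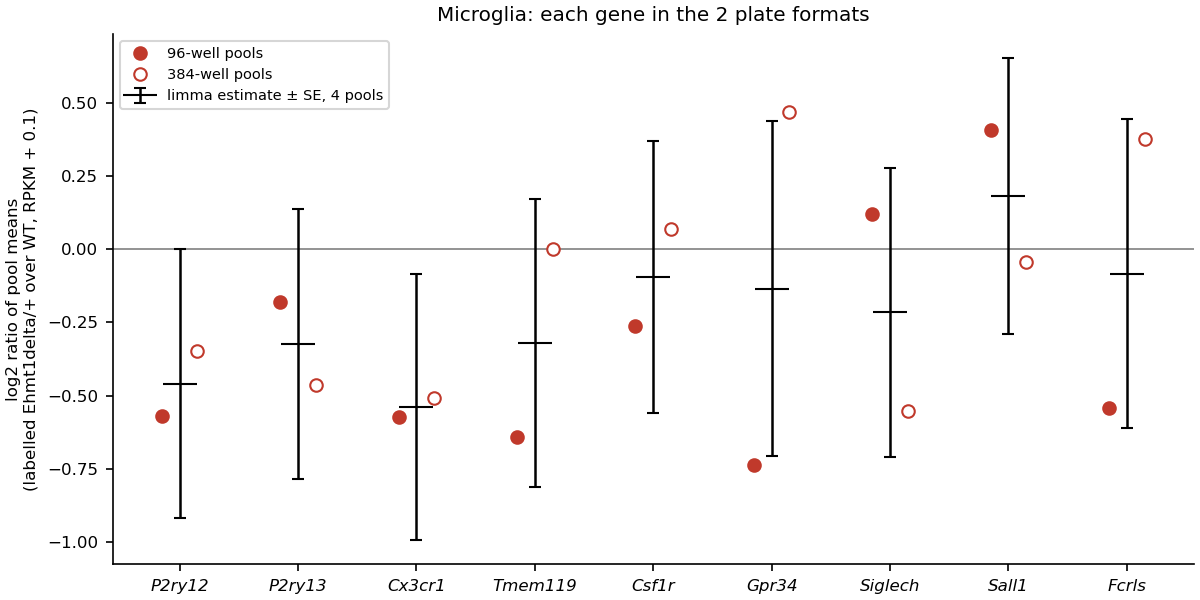
Log2 ratio of pool means in microglia, Ehmt1delta/+ over WT, after adding 0.1 RPKM (y axis), for each gene in the 96-well (filled) and 384-well pools (open), with the limma estimate ± SE over the 4 pools. *P2ry12*, *P2ry13* and *Cx3cr1* lie below 0 in both formats and the other 6 genes on both sides of 0.

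The 384-well pools with the induced transgene had 1 pool per genotype, so that their values carry no test, and the comparisons below share pools. Of the 9 genes, only *Gpr34* differed from WT by a log2 ratio of 1 or more, at 1.14 in Ehmt1delta/+; iTg (58.8 RPKM against 26.5 RPKM), as did 27.8% of the 13971 genes compared, while 15.4% were lower. In iTg against WT none did, while 20.7% of all genes were higher and 23.2% lower by that size. None did in Ehmt1delta/+ against WT (23.8% of all genes higher, 21.7% lower), in Ehmt1delta/+; iTg against Ehmt1delta/+ (26.3% higher, 16.2% lower) or in Ehmt1delta/+; iTg against iTg (29.1% higher, 14% lower). The median log2 ratio of the 9 genes was -0.04 for iTg and 0.22 for Ehmt1delta/+; iTg against WT, beside -0.07 and 0.21 over all genes compared. *P2ry13* was at 68.2 RPKM in iTg and 99.5 RPKM in Ehmt1delta/+; iTg, which places Ehmt1delta/+; iTg above and Ehmt1delta/+ (53.01 RPKM) below WT (73.2 RPKM). *P2ry12* had the same order, at 134.7 RPKM in Ehmt1delta/+; iTg, 119.8 RPKM in WT and 94.2 RPKM in Ehmt1delta/+. *Cx3cr1* did not, since its 3 other pools of the 384-well plates were all below WT.

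Within the nuclei labelled Microglia, 4 held 6 or 7 of 7 markers of border macrophages (*Mrc1*, *Cd163*, *Lyve1*, *Pf4*, *F13a1*, *Ms4a7* and *Cbr2*), the macrophages of the meninges and vessel walls. Of these nuclei 1 was WT and 2 were Ehmt1delta/+ in the 96-well plates, and 1 was Ehmt1delta/+ in the 384-well plates. They were singled out after their values were seen. They kept *Csf1r*, with 515 to 901 RPKM against a median of 832 RPKM in the other microglia, and *Fcrls*, with 107.6 to 557 RPKM against a median of 239.3 RPKM. *Sall1* and *Tmem119* were at 0 in all 4. *Cx3cr1* and *Siglech* were above 0 in 1 nucleus each, at 49.5 RPKM and 19.3 RPKM, against medians of 253.9 and 365.7 RPKM in the others. *P2ry12* was found in 3 of the 4, with at most 63.4 RPKM against a median of 179.9 RPKM, *P2ry13* in 2, at 65.1 and 119.5 RPKM, and *Gpr34* in 2, at 7.39 and 29.6 RPKM. In *Cx3cr1*, *Tmem119*, *Siglech* and *Sall1* these nuclei were therefore apart from the rest of the label. Without the 4 nuclei the median log2 ratio of the 9 genes was -0.15 and again no gene passed the limma threshold.

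**Figure D4:**
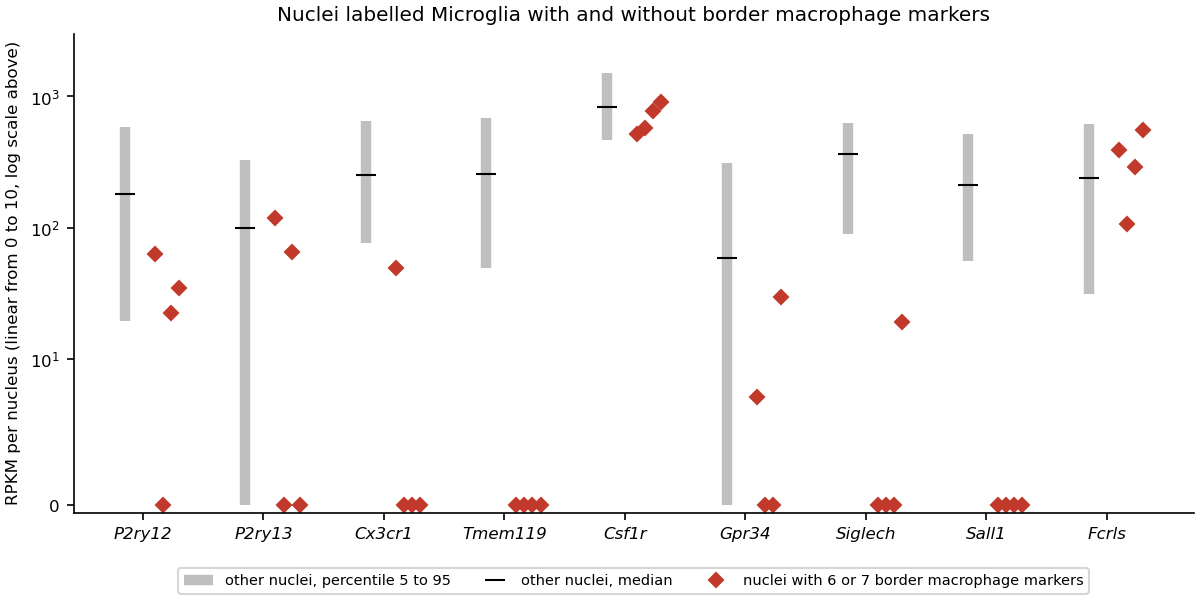
RPKM per nucleus (y axis, linear from 0 to 10 and logarithmic above) of each gene in the 4 nuclei labelled Microglia with 6 or 7 border macrophage markers (red diamonds) and in all others (grey bars from percentile 5 to 95, black line at the median). The 4 nuclei reach the level of the others in *Csf1r* and *Fcrls* and lie at 0 in *Sall1* and *Tmem119*.

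One more nucleus labelled Microglia, of WT in the 96-well plates, had 0 of the 9 genes at 557100 reads, and *Ctss* was at 2.64 RPKM there against a pool mean of 505 RPKM. It had values above 0 for 7 of 20 other microglia genes. Conversely, 1 nucleus labelled Neuron, of Ehmt1delta/+ in the 384-well plates, held 7 of the 9 genes, with *Csf1r* at 221.5 RPKM, *Sall1* at 111.4 RPKM and *Ctss* at 37.2 RPKM beside *Snap25* at 16.4 RPKM. Without it the mean *Csf1r* level in the neurons of that pool was 1.37 RPKM in place of 2.08 RPKM.

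Outside microglia, the 9 genes fell into groups. *Tmem119* and *Fcrls* were the most restricted. *Tmem119* was found in 0 to 2.64% of neurons and was listed at 0 in all oligodendrocytes of 5 pools, where for instance 0 of 71 iTg nuclei allows a share of up to 4.23%. *Fcrls* was found in 0.327 to 1.19% of neurons. *Cx3cr1* and *Siglech* were found in 4.64 to 13.04% and in 12.6 to 20% of neurons, but with 2 or more reads in at most 4.35% and 1.40%. Their pool means were at most 0.223 and 0.219 RPKM, or 0.171 and 0.106 RPKM without the neuron with 7 genes. *Csf1r* was found in 66.5 to 79.4% of neurons, at pool means of 1.01 to 2.08 RPKM, and its microglial level in the same pool was 415 to 948 times as high, or at least 625 times without that neuron. Its exons overlap those of *Hmgxb3*, on the opposite strand, by 873 bases in GENCODE M21. In WT neurons of the 96-well plates, *Hmgxb3* was at 11.2 RPKM where *Csf1r* was found and at 7.39 RPKM where it was not. *Hmgxb3* was looked at after these values were seen.

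*P2ry12*, *P2ry13* and *Gpr34* were found in many neurons although they are microglial receptors. In the 96-well plates *P2ry12* was in 56.1% of WT (exact interval 49.8 to 62.3%) and 53.6% of Ehmt1delta/+ neurons (47.4 to 59.7%), *P2ry13* in 65.6% and 60.4%, and *Gpr34* in 52.6% and 56.6%. The pool means were 2.33 and 2.26 RPKM, 5.03 and 5.12 RPKM, and 2.92 and 3.15 RPKM. The read totals of neurons ran from 240330 to 539103 for the 96-well pools and from 43592 to 1332269 for the 384-well pools. The shares were lower in the latter, between 19.3 and 36.8% for *P2ry12*, between 44.4 and 58.9% for *P2ry13* and between 14.9 and 29.6% for *Gpr34*, each highest in Ehmt1delta/+; iTg. Oligodendrocytes of the same pools held *P2ry12* in 0 to 7.04%, *P2ry13* in 0 to 5.63% and *Gpr34* in 1.41 to 12.7% of nuclei. In the 96-well plates, where oligodendrocytes had more reads per nucleus than neurons, each of the 3 shares was thus lower in oligodendrocytes, with at most 12.7%. *Ctss* was found in 0.351 to 2.64% of neurons.

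All 3 genes lie inside a larger gene of the opposite strand. *Med12l*, which encodes a subunit of the Mediator complex, runs from 59005825 to 59318682 on the plus strand of chromosome 3 and holds *Gpr171*, *P2ry14*, *P2ry13* and *P2ry12* among its inner genes. *Cask*, which encodes a synaptic scaffold kinase, runs from 13517080 to 13851367 on the minus strand of chromosome X and holds *Gpr34* (13632089 to 13640858) and *Gpr82*. The exons of *P2ry12* share 9 of 2546 bases with those of *Med12l*, and those of *P2ry13* and *Gpr34* share none with their host. *Med12l* was at 15.7 to 18.5 RPKM in the 6 neuron pools and at 0.478 to 1.89 RPKM in oligodendrocytes, and *Cask* was at 7.77 to 11.01 and 1.76 to 6.58 RPKM. The methods give default parameters for the counting, which do not use strand but do not give fractions of reads either, and fractions were found here. Whether strand was used is therefore not known, and reads of a gene and of its host on the other strand may not have been told apart.

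Other genes inside these hosts were found in the same neurons. In WT neurons of the 96-well plates, the mean was 12.03 RPKM for *Gpr171*, 11.2 RPKM for *P2ry14*, 5.03 RPKM for *P2ry13* and 2.33 RPKM for *P2ry12*. In the 96-well plates these 4 levels fell in the order in which the genes lie along *Med12l*, with *Gpr171* and *P2ry14* nearest to its start. In the 384-well plates *P2ry14* was the highest of these 4 and *Gpr171* did not follow this order. *P2ry13* was found in 91.5% of the WT neurons with *P2ry12* of the 96-well plates and in 32.4% of those without, at median depths of 348250 and 339050 reads. In WT of the 384-well plates these shares were 81.6% and 41.1%, at 461310 and 368300 reads. *Gpr82* was found in 94.7% of the WT neurons with *Gpr34* of the 96-well plates and in 50% of those without, and in 44.2% and 29.2% in the 384-well plates. *Ctss* was found in 2.11% of the WT neurons with *P2ry12* of the 96-well plates and in 0.901% of those without, and in 3.52% and 1.63% in Ehmt1delta/+.

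In microglia the order was the reverse. *Med12l* was at 17.01 to 32.01 RPKM in the 6 microglia pools, not below neurons, yet *P2ry14* and *Gpr171* were listed at 0 in nearly all microglia, with at most 1 nucleus above 0 in any pool. *P2ry13* and *P2ry12* were 20.6 to 38.7 and 113.2 to 222.04 times as high in microglia as in neurons of the same pool. *Gpr82*, the neighbour of *Gpr34*, was at 10.5 and 9.38 RPKM in WT and Ehmt1delta/+ microglia of the 96-well plates, found in 11 of 36 and 9 of 32 nuclei. In the 384-well microglia pools it was at 0 to 2.34 RPKM, with at most 1 nucleus above 0 in any of them.

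**Figure D5:**
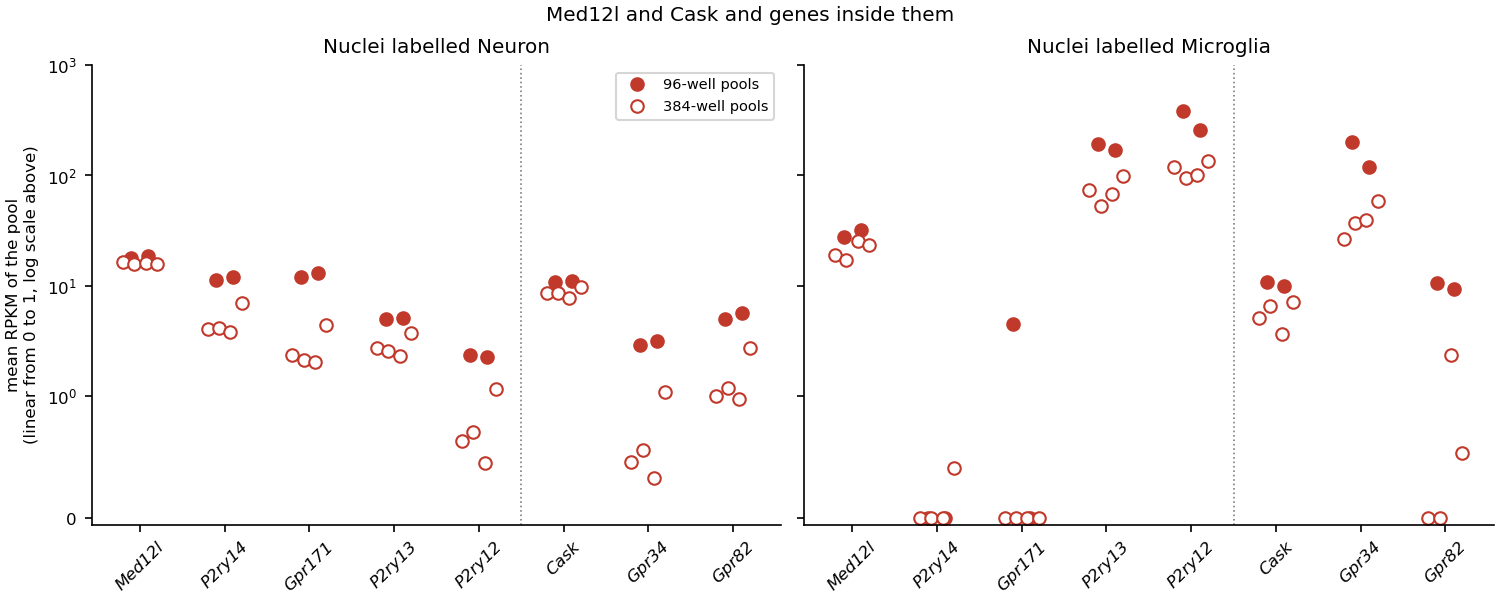
Mean RPKM of each pool (y axis, linear from 0 to 1 and logarithmic above) for *Med12l* and *Cask* and genes inside them, in nuclei labelled Neuron (left) and Microglia (right), with filled points for the 96-well and open points for the 384-well pools. In neurons the inner genes shown lie below their host, while in microglia *P2ry13*, *P2ry12* and *Gpr34* stand above the host and *P2ry14* and *Gpr171* lie near 0, but for *Gpr171* in WT of the 96-well plates (4.53 RPKM, from 1 nucleus).

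*Sall1* was the gene of the 9 found most often in oligodendrocytes, where *Csf1r*, the next, was in 14.1 to 36.99% of nuclei. It was in 56.2% of WT (exact interval 44.1 to 67.8%) and 52.1% of Ehmt1delta/+ oligodendrocytes (39.9 to 64.1%) of the 96-well plates, and in 37.3 to 61.97% of those of the 384-well plates. The mean was 9.52 and 9.78 RPKM in the 96-well plates and between 16.3 and 29.1 RPKM in the 384-well plates, so that microglia were 10.9 to 18.2 times as high in the same pool. In neurons it was found in 3.02 to 8.30% of nuclei. The WT oligodendrocytes of the 96-well plates with *Sall1* had *Mog*, a myelin gene, at 354.3 RPKM and those without at 340.7 RPKM, and *Cx3cr1* was at 0.0906 and 0.0509 RPKM. Over the 6 pools *Mog* was at 256.1 to 354.3 RPKM with *Sall1* and at 271.3 to 340.7 RPKM without, and *Cx3cr1* was at most 1.55 and 0.366 RPKM. *Slc1a3*, which encodes a glutamate transporter of astrocytes and was picked from 6 genes after its values were seen, was higher in the oligodendrocytes with *Sall1* in all 6 pools, at 8.98 to 16.7 RPKM against 5.55 to 9.96 RPKM. *Aqp4*, another astrocyte marker among the 6 genes, was higher with *Sall1* in 2 of the 6 pools, at 0 to 1.30 RPKM against 0 to 0.610 RPKM. The median read total was higher with *Sall1* in 3 of the 6 pools.

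The genes most like the 9 over the 18 pool and cell type means, by Pearson's r of log2(mean RPKM + 0.1) with the mean of the 9, were *Lcp2*, *Ikzf1*, *Itgb2*, *Naip2* and *Gm38346*, each with r of 0.998 among 8787 genes above 0 in at least 10% of the microglia of every pool. The points share libraries and depth, and the step between cell types enters r. Across single microglia of 1 pool the 9 genes were related less closely, with a median Spearman's rho over 36 pairs of 0.521 in WT and 0.351 in Ehmt1delta/+ of the 96-well plates, and a range from -0.161 to 0.833 in WT.

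The ligands of CX3CR1 and CSF1R were each highest in a cell type other than microglia. *Cx3cl1*, which encodes fractalkine, was at 44.6 to 73.98 RPKM in the neuron pools and at most 3.35 RPKM in microglia. *Il34* was at 14.0 to 19.9 RPKM in neurons and was listed at 0 in 5 of 6 microglia pools. *Csf1*, the other CSF1R ligand, was highest in oligodendrocytes, at 22.6 to 55.9 RPKM. It was at 1.73 to 3.06 RPKM in neurons and at 0 to 9.03 RPKM in microglia. *Tgfb1*, whose product maintains the homeostatic state, was at 16.6 to 41.3 RPKM in microglia and at most 0.0740 RPKM in neurons. Of the 11 ligand and pathway genes 9 were tested in microglia, and 0 passed the adjusted limma threshold, while 5 were lower and 1 higher in both formats. *Tgfbr1*, a receptor of TGF-beta, was the highest of them in 5 of the 6 microglia pools, with a log2 ratio of -0.08. *Tyrobp*, a signalling adaptor, was the highest in WT of the 384-well plates and had a ratio of -0.94 ± 0.49 (SE, limma adjusted p = 0.92).

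No gene of the other lists passed the limma threshold either. Of 20 other microglia genes all were tested, 8 were lower and 1 was higher in both formats, and the median log2 ratio was -0.21. Among the highest, *Cst3*, *C1qb* and *Selplg* had log2 ratios of -0.46, -0.21 and -0.21. *Cst3* had a ratio of -1.11 between the 96-well pools and of 0.20 between the 384-well pools. Of 10 transcription factors of the lineage 0 were lower and 2 higher in both formats, with a median of 0.00. Of 12 genes of activated microglia 5 were tested, 2 were lower and 2 higher in both, and 2, *Apoe* and *Ccl6*, exceeded a log2 ratio of 1 in both. *Ccl6* was found in 10 of 36 WT and 20 of 32 Ehmt1delta/+ microglia of the 96-well plates. In the 384-well plates it was found in 2 of 16 and 2 of 19, so that its ratio there rests on 2 nuclei per pool. *Apoe*, which encodes a lipoprotein of lipid transport, was at 52.9 and 144.4 RPKM in WT and Ehmt1delta/+ of the 96-well plates and at 0.941 and 99.7 RPKM in the 384-well plates. Without the 4 nuclei with border macrophage markers these means were 11.2 and 15.04 RPKM, and 0.941 and 33.4 RPKM. The last of these rests on 1 nucleus at 503.2 RPKM, without which it was 5.80 RPKM. *Apoe* was above 0 in 1 of 16 WT microglia of the 384-well plates. It entered the test only through Ehmt1delta/+, where it was higher, which favours such a ratio.

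Markers of other cell types were summed in microglia. The summed level of the 7 border macrophage markers was 57.6 RPKM in WT and 178.7 RPKM in Ehmt1delta/+ of the 96-well plates, and 0.158 and 78.4 RPKM in the 384-well plates. Without the 4 nuclei with border macrophage markers described above, these sums were 1.62 and 14.7 RPKM, and 0.158 and 2.82 RPKM. In iTg and Ehmt1delta/+; iTg, which held none of the 4 nuclei, the sums were 7.96 and 4.96 RPKM. The 6 markers of blood immune cells summed to at most 4.48 RPKM in any pool, with 2 to 5 of them at 0. The 5 oligodendrocyte markers summed to 11.3 to 26.4 RPKM, the 4 astrocyte markers to 9.87 to 44.4 RPKM and the 3 vascular markers to at most 0.463 RPKM. For comparison, the 9 homeostatic genes summed to 2368 to 3328 RPKM.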

How the data were processed

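According to the methods, reads were first trimmed with Fastq-mcf. The authors mapped them to mm10 with HISAT2 2.0.4, removed nuclei of poor quality, counted reads per gene with featureCounts (Subread 1.5.0) at default parameters on a Gencode annotation, and deposited RPKM values in 1 table per plate format, each with 52636 genes. Read totals were recovered here from the steps of the RPKM values. Of the values above 0, 69.2% (96-well) and 73.5% (384-well) were within 0.01 of a whole read, and the rest were fractions, which default parameters do not give. No nuclei had identical values. Gene lengths and positions came from GENCODE M21, of the same build. For *Csf1r*, whose identifier has another version there, the length of 9770 bases was the one that made every value a whole read.

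Gene levels are means of RPKM over the nuclei of a pool. For the test a gene had to be above 0, in both plate formats, in at least 10% of the microglia of one genotype. It used limma 3.58.1 in R 4.3.3 on log2(mean + 0.1) with Benjamini-Hochberg adjustment. The pseudocount understates ratios of low genes. Nothing says that a pool was repeated within a plate format, and by the labels the formats differed in the transgene. The p-values of the reported fit thus set the genotype ratio against its disagreement between the formats, with the spread shared over all genes. Shares have exact Clopper-Pearson 95% intervals, and a share of 0 the limit that 3 counts allow. Both cover counting error only. Named were the 9 genes, the hosts and their inner genes, of each of the other lists at most 4 genes by level, and the 5 genes most alike. Some genes of this rule are not reported here. The members and lists were chosen with earlier results of these data known. Alternatives were other pseudocounts, averages, filters, centring, nuclei and terms. Steps were tested on simulated data. Python 3.11.15, SciPy 1.17.1 and pandas 2.3.3 were used.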

Additional observations from a re-analysis of the deposited data

Results flagged for a closer look

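In microglia, 6 of the 9 genes had log2 ratios of Ehmt1delta/+ to WT of opposite sign in the 2 plate formats. With 1 pool per genotype and format the difference was not tested, and 49.1% of all genes tested had opposite signs. The ratio in the 384-well plates minus that in the 96-well plates was 1.203 for *Gpr34*, 0.92 for *Fcrls*, 0.64 for *Tmem119* and 0.33 for *Csf1r*, which were lower in Ehmt1delta/+ in the 96-well plates only. It was -0.67 for *Siglech* and -0.45 for *Sall1*, which were lower in the 384-well plates only. The 384-well ratios of *Tmem119* and *Sall1*, at 0.00 and -0.05, were close to 0.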

How the results depend on the processing

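No gene, and none of the 9, passed the limma threshold under any of the 11 alternatives run to the fit, with the lowest adjusted p of any member at 0.882. The median log2 ratio of the 9 genes was below 0 under each alternative, at -0.04 with all 6 pools and additive terms and between -0.54 and -0.05 without one plate format. Directions of single genes turned in 4 cases among the fits over both formats. *Gpr34* was at 0.10 and *Sall1* at -0.025 with all 6 pools and additive terms, and *Sall1* was at -0.10 and *Fcrls* at 0.52 with the mean over nuclei of log2(RPKM + 1). Without the 96-well pools *Tmem119* (0.00), *Csf1r* (0.07), *Gpr34* (0.47), *Sall1* (-0.05) and *Fcrls* (0.37) turned, and without the 384-well pools *Siglech* (0.12). The cause was not tested. Counting only genes with at least 2 reads, the median over pools of the genes found per neuron was 1.51 in place of 2.15. Within the codes of the 96-well sample names the median ratio was -0.10 and -0.15 in 2 codes, against -0.54 over the whole pools. The median ratio of Ehmt1delta/+; iTg to Ehmt1delta/+ was 0.89 as a mean of log2(RPKM + 1), against 0.30. Counts of genes called without one plate format were not run, since a single pair of pools gives no test. The alternative without nuclei holding border macrophage markers and the median with all 6 pools were chosen after seeing the data. No paired analysis was possible because the numbers of the samples name nuclei and pair no animals, and the codes in the names pair no animals or plates. Thinning to 26382 reads lowered the expected share of microglia with *Gpr34* from 71.4 to 57.7% in WT of the 384-well plates and from 97.2 to 94.5% in the 96-well plates.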
